A study of Mus musculus with 9 samples.

Results

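Cd69 and 5 genes of G-protein-coupled receptors, S1pr1, Gpr183, P2ry2, Ptger4 and Htr2a, were followed in mouse peritoneal macrophages 2 h after interferon. They are 6 of the 19752 genes that had a probe set of their own on the array. Cd69 was chosen because its product removes the receptor S1PR1 from the cell surface, and the receptor genes were chosen by their measured levels on these arrays, which were lower after interferon. The levels of these 6 genes in the interferon and untreated groups are therefore a description of that choice, given with their errors and without a test. Male C57BL/6 mice of 6 weeks of age were injected under the skin with 10000 U of the type I interferon alpha (IFNa, 4 arrays) or 8000 U of the type II interferon gamma (IFNg, 2 arrays), both recombinant, or were left untreated (3 arrays). Macrophages from the peritoneal lavage were purified by 2 rounds of flow sorting on F4/80 and ICAM, although the label of the untreated samples names F4/80 alone. No group injected with vehicle was included, so injection and interferon cannot be told apart in any difference from untreated. If the sort differed as these labels do, it cannot be told apart from interferon there either. The labels do not say whether an array holds 1 mouse or several, so p-values measure the spread between these samples.

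CD69 is a C-type lectin-like membrane protein that appears early on activated leukocytes. In lymphocytes it binds S1PR1, a receptor for the lipid sphingosine-1-phosphate, and takes it into the cell, which holds the cell in the tissue. GPR183 (also called EBI2) guides immune cells along gradients of oxysterols such as 7α,25-dihydroxycholesterol. P2RY2 senses extracellular ATP and UTP, PTGER4 (EP4) senses prostaglandin E2 and raises cyclic AMP, and HTR2A senses serotonin. Type I and type II interferons act through different receptors that share JAK and STAT signalling proteins.

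Large peritoneal macrophage markers, among them Adgre1 (F4/80), Icam2, Timd4 and Gata6, lay above the array median on all 9 arrays for 8 of 8 measured genes. T and NK cell markers, such as Cd3d, Cd3g and Ncr1, lay below the array median on all arrays for 10 of 11. The exception was Cd3e, which reached 218.9 on IFNa replicate 4 and 194.5 on untreated replicate 1. Of 8 mesothelial and stromal markers 5 lay below the array median on all arrays, and Col1a1 and Col3a1 lay above it on all. Summed intensities of 7 B cell markers ranged from 658.5 to 2153 in IFNa, 681 to 738 in IFNg and 808 to 1101 in untreated arrays, and the highest sum belonged to IFNa replicate 2. Of 7 markers of small peritoneal macrophages, monocytes and dendritic cells 5 lay above the array median on all arrays, and 2 lay below it on all. The 5 were Ccr2, Cd209a, Fn1, Irf4 and Mgl2. The summed level of the 7, most of it from Fn1, was 18532 to 18891 in IFNa, 18298 to 18553 in IFNg and 19205 to 19599.7 in untreated arrays. These sums were lower on every interferon array, but Fn1 alone overlapped, with 16579 on IFNa replicate 4 and 16557 on untreated replicate 3. Of the 7 genes only Mgl2 stood higher by the mean (log2 0.15 after IFNa and 0.57 after IFNg), and none passed the test. The sum of 7 mast cell markers was 3108 on IFNa replicate 4, against 1185 to 1593 on the other 8 arrays. Most of it came from Hdc (histidine decarboxylase), at 2701. Cpa3, Mcpt4, Tpsb2, Cma1 and Kit stood there below the highest untreated array. Fcer1a had 36.2 there, against 27.6 to 32.3 on the untreated arrays. IFNa replicate 4 also had the lowest level of its group for all 5 receptor genes. The sum of 9 neutrophil and eosinophil markers was 717 to 934 in IFNa, 695 to 717 in IFNg and 677 to 822 in untreated arrays, again highest on IFNa replicate 4. The part of these cells in the results was not tested. Gata6 fell by 1.05 on the log2 scale after IFNa and by 1.16 after IFNg (limma adjusted p = 0.01 and 0.0242), and no marker of another cell type passed the test in any comparison. In bulk samples, fewer cells of a type and less RNA per cell cannot be told apart. IFNa replicate 4 and untreated replicate 1 had the narrowest range of intensities (upper over lower quartile 2.16 and 2.27 on the log2 scale, other arrays 2.68 to 3.03), so differences are also given without these 2 arrays.

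Cd69 had intensities of 303, 560.0, 599 and 413 on the IFNa arrays, 168 and 251 on the IFNg arrays, and 37.3, 33.4 and 43.5 on the untreated arrays. The 3 groups did not overlap, with IFNa highest, IFNg between and untreated lowest. At rest the transcript was near the low end of the scale, where the 5th percentile of an untreated array was 24.1 to 27.9 and its median 162.2 to 178.3, which leaves the size of the difference inexact. The mean was 469 ± 137 in IFNa, 209 ± 59.0 in IFNg and 38.1 ± 5.11 in untreated arrays (SD, n = 4, 2 and 3). On the log2 scale the IFNa level was 3.58 ± 0.25 above untreated (SE, 11.96-fold), the 24th largest positive difference of all genes. The IFNg level was 2.44 ± 0.29 above untreated (5.42-fold). Without the 2 arrays of narrow range these differences were 3.61 ± 0.31 and 2.43 ± 0.34.

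S1pr1 had intensities of 493, 826, 565 and 343 after IFNa, 367 and 414 after IFNg, and 1119, 1613 and 1607 without treatment. Every interferon array lay below every untreated array, while IFNa and IFNg arrays overlapped. The IFNa level was 2.69-fold lower than untreated (log2 -1.43 ± 0.27) and the IFNg level 3.66-fold lower (log2 -1.87 ± 0.32). IFNa replicate 2, which had the highest S1pr1 of its group, was also the array with the highest B cell markers, with Ms4a1 (CD20) at 530.5 against 53.7 to 179 on the other IFNa arrays. S1pr1 is expressed by lymphocytes as well, and the part of these cells in its level was not tested. Without that array the IFNa difference was -1.64. The B cell sum was 681 and 738 on the IFNg arrays, where S1pr1 was lowest by the mean. It was 808 to 1101 on the untreated arrays, where S1pr1 was highest. On IFNa replicates 1 to 4 the sum was 935, 2153, 658.5 and 980, with S1pr1 at 493, 826, 565 and 343.

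Gpr183 had intensities of 302, 373, 381 and 232 after IFNa, 238 and 214 after IFNg, and 549, 739 and 746 in untreated cells. The order of levels was that of S1pr1, with untreated highest and IFNg lowest by the mean, and IFNa replicate 4 lay within the range of the IFNg arrays. The levels were 2.13-fold (log2 -1.09 ± 0.19) and 2.97-fold (log2 -1.57 ± 0.23) lower after IFNa and IFNg than in untreated cells.

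P2ry2 had intensities of 507, 698, 542 and 419.8 after IFNa, 469.6 and 593 after IFNg, and 1138, 1302 and 1695 in untreated cells. The IFNa and IFNg means, 542 ± 116 and 531 ± 87.5 (SD, n = 4 and 2), differed by less than the spread within either group. Both lay below the untreated mean of 1378 ± 286 (SD, n = 3), 2.55-fold after IFNa (log2 -1.35 ± 0.20) and 2.58-fold after IFNg (log2 -1.36 ± 0.24).

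Htr2a followed the same order, with 369.6, 495, 418 and 302 after IFNa, 337 and 414 after IFNg, and 1218, 1168 and 1010.2 in untreated cells. The highest interferon array had 495 and the lowest untreated array 1010.2. The level was 2.89-fold lower after IFNa (log2 -1.53 ± 0.17) and 3.02-fold lower after IFNg (log2 -1.59 ± 0.21), and the 2 interferon groups overlapped. Among all genes this was the 6th most negative difference after IFNa and the 9th after IFNg. These ranks are a description only, since the gene was chosen by these values.

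Ptger4 was the one of the 5 receptor genes whose mean was lower after IFNa than after IFNg. Its intensities were 989.9, 795, 861 and 474 after IFNa, 927 and 1507 after IFNg, and 1752, 2094 and 1997 without treatment. The IFNa level was 2.58-fold below untreated (log2 -1.37 ± 0.25) and the IFNg level 1.64-fold below (log2 -0.72 ± 0.30). The IFNg value rested on 2 arrays that stood 1.63-fold apart: it was -0.37 without IFNg replicate 1 and -1.07 without IFNg replicate 2. The IFNa level was the lowest by the mean, but IFNa replicate 1 lay above IFNg replicate 1, so the interferon groups overlapped.

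**Figure D1:**
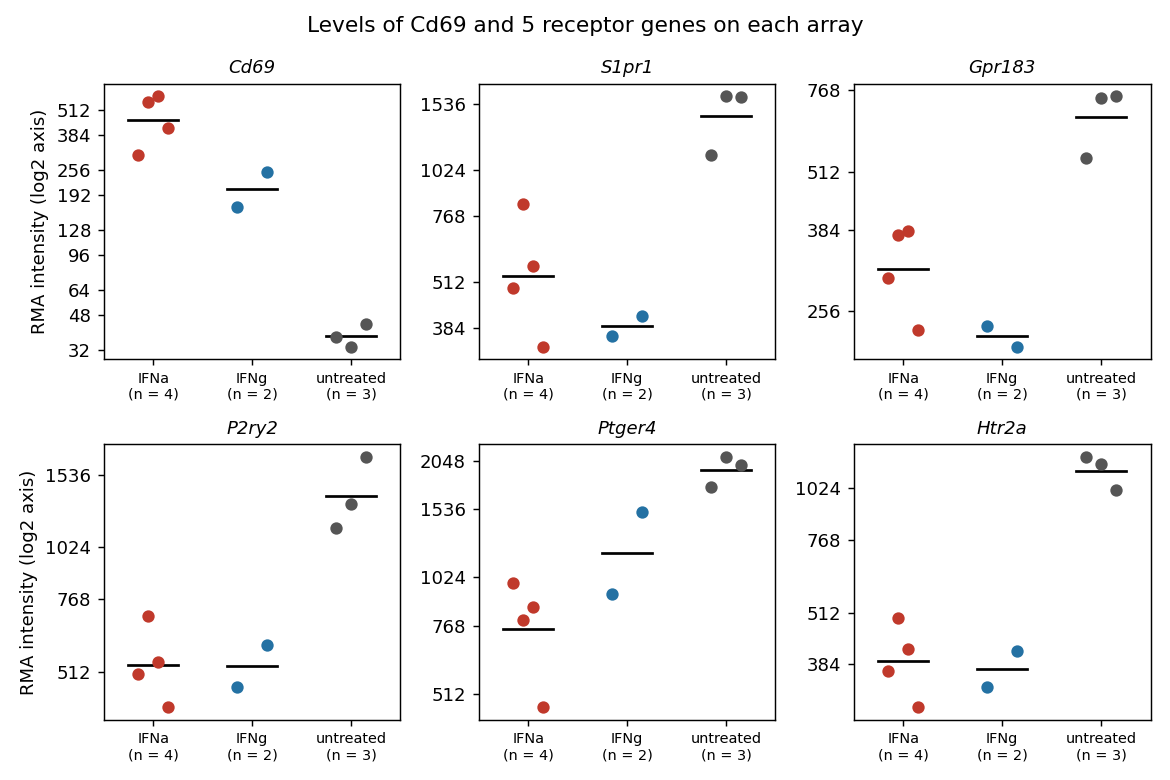
RMA intensity (log2 axis, a separate scale in each panel) of Cd69, S1pr1, Gpr183, P2ry2, Ptger4 and Htr2a on each array of the IFNa, IFNg and untreated groups. Points are arrays and black lines are means of the log2 values. Cd69 is highest in IFNa and lowest in untreated arrays without overlap, and each receptor gene has all interferon arrays below all untreated arrays.

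Each of the 5 receptor genes had 4 of 4 IFNa arrays and 2 of 2 IFNg arrays below all 3 untreated arrays. Over all genes 2.65% passed the test after IFNa and 1.35% after IFNg. Of all genes 6.75% had every IFNa array below every untreated array and 15.5% had every IFNg array below, and nothing is read from the count because these values chose the genes. Cd69 had every array above untreated, as did 3.68% of genes after IFNa and 12.3% after IFNg. The 2 comparisons share the untreated arrays. Without the 2 arrays of narrow range the receptor genes stood at log2 -1.39 (S1pr1), -1.09 (Gpr183), -1.37 (P2ry2), -1.22 (Ptger4) and -1.35 (Htr2a) after IFNa. In the same order they stood at -2.05, -1.72, -1.49, -0.79 and -1.54 after IFNg. The direction could not reverse here, because no interferon array overlapped the untreated arrays for these genes. IFNa replicate 4, of narrow range, had the lowest level of its group for 5 of 5 receptor genes, and untreated replicate 1 had it for 4 of 5. The part of array range in the levels was not tested beyond leaving these arrays out.

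Of the 6 genes only Cd69 had IFNa and IFNg arrays that did not overlap, and it was 2.21-fold higher after IFNa than after IFNg (log2 1.14 ± 0.28), with the lowest IFNa array (303) above the highest IFNg array (251). Of all genes 12.8% had every IFNa array above every IFNg array and 15.6% had every one below, and 0.977% passed the test in this comparison. S1pr1 and Gpr183 stood higher after IFNa by 0.44 ± 0.30 and 0.48 ± 0.22, P2ry2 and Htr2a by 0.01 ± 0.22 and 0.06 ± 0.20, and Ptger4 stood at -0.65 ± 0.29. Without the 2 arrays of narrow range S1pr1 and Gpr183 stood at 0.65 and 0.63 and Ptger4 at -0.43, so the order of these gaps depended on those arrays. These differences were not tested, because IFNa and IFNg arrays both entered the choice of the genes, and the doses of the interferons differed.

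**Figure D2:**
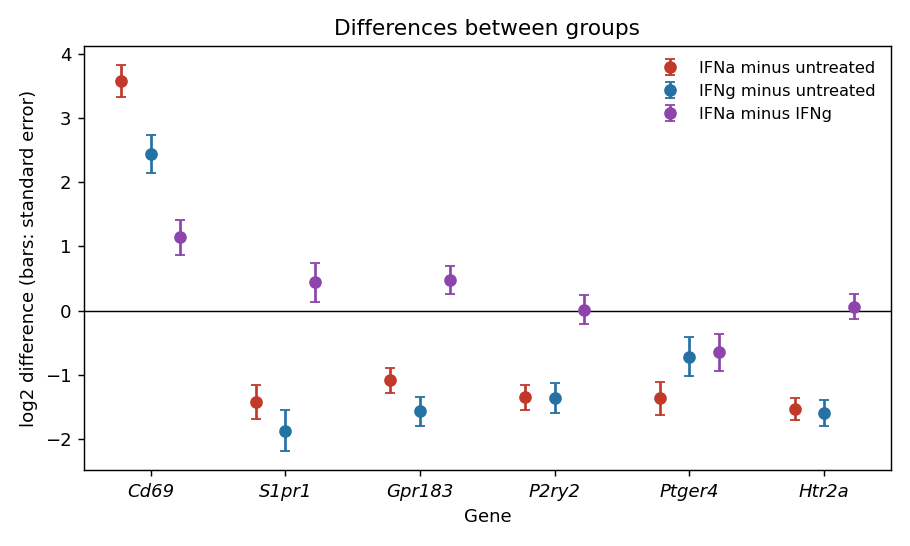
Log2 differences of Cd69 and the 5 receptor genes from the linear model, with standard errors as bars: IFNa minus untreated, IFNg minus untreated and IFNa minus IFNg. Cd69 lies at 3.58, 2.44 and 1.14, the receptor genes lie between -1.87 and -0.72 in both comparisons with untreated, and Ptger4 alone among the receptor genes is below 0 in the direct comparison.

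The genes whose levels over the 9 arrays were most like each of the 6 were found by the root mean square difference of centred log2 levels, among 2838 genes whose group means spanned at least 0.5. For Cd69 these were Stat2 (0.43), Tnfsf10 (0.46), Herc6 (0.49), Oas3 (0.49) and Parp14 (0.50). All are known as interferon-induced genes. Their IFNa differences of 2.81 to 3.72 and IFNg differences of 1.79 to 2.501 bracket those of Cd69, which follows from how they were found. For S1pr1 the nearest were Gpr183 (0.24), P2ry2 (0.26) and Htr2a (0.28), which were chosen for the same direction, followed by Tcim (0.30) and the deglycosylating enzyme gene Engase (0.33). Gpr183 was nearest to S1pr1 (0.24), Efnb2 (0.24) and Gata6 (0.24), the last being the transcription factor gene of the large peritoneal macrophage. P2ry2 was nearest to Fhl3 (0.18), Sesn2 (0.19) and Engase (0.20), and Htr2a to Engase (0.20), P2ry2 (0.23) and Sox7 (0.24). Ptger4 had a set of its own, Akna (0.19), Kif21b (0.23) and Mast3 (0.25), and its difference from S1pr1 (0.55) was larger than from P2ry2 (0.38).

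Promoters from RefSeq (build GRCm38.p6, from 250 bases before to 50 bases after the transcription start) were found for 4 of the 6 genes, Gpr183, P2ry2, Ptger4 and Htr2a. They are shown because they were the ones found. All 4 genes had lower levels after both interferons, Ptger4 by less than the others after IFNg. Capitals mark the GC box GGGCGG on either strand, and for P2ry2 the first of its listed starts is given.
Gpr183, chr14:121965144-121965443, minus strand: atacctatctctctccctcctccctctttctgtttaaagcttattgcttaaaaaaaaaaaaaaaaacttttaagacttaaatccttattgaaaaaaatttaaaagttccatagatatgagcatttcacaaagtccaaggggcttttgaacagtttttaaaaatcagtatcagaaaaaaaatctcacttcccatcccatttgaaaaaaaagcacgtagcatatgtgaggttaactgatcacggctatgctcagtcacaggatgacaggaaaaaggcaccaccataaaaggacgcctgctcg
P2ry2, chr7:101012004-101012303, minus strand: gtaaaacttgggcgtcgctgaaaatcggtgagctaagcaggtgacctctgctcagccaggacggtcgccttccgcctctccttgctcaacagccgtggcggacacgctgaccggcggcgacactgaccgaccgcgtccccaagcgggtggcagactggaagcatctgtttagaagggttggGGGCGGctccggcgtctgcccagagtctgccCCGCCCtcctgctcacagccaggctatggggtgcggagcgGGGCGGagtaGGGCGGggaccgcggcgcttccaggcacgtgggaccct
Ptger4, chr15:5244138-5244437, minus strand: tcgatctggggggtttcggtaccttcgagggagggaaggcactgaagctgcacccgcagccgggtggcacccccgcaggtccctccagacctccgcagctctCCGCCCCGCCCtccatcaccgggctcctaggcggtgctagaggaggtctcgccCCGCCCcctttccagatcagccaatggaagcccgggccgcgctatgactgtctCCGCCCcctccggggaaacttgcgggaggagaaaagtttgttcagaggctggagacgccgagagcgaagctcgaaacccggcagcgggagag
Htr2a, chr14:74640624-74640923, plus strand: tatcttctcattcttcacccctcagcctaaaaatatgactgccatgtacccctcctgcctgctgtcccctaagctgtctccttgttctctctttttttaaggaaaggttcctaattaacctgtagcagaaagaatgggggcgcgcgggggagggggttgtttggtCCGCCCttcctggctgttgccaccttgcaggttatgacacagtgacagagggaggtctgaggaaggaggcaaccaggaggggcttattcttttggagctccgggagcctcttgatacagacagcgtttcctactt
The core of the interferon-stimulated response element, which 3.44% of 32851 promoters hold, and the letters of the gamma-activated site, TTCNNNGAA, which 8.30% hold, were searched on both strands and were not in these 4 windows. The GC box was present 4 times in P2ry2, 4 times in Ptger4, once in Htr2a and not in Gpr183, against 35.7% of all promoters that hold at least 1. The 4 sequences differed in base composition: 35.3% G and C for Gpr183, 52.0% for Htr2a, 67.0% for Ptger4 and 67.3% for P2ry2, beside a median of 52.7% over all promoters.

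Genes next to the 6 on the chromosome were examined after the lists below, as the 3 nearest protein-coding genes with a probe set on each side by their order in the RefSeq table. Of 36 such neighbours 1 rose and 1 fell after IFNa, and 2 rose after IFNg (percentages over all genes 1.79%, 0.856% and 1.24%). The nearest neighbour of Cd69 on one side, Clec2d, which encodes a lectin-like ligand of an inhibitory NK cell receptor, rose after both interferons. It had 2989, 3781, 3667 and 2989 after IFNa, 3240.1 and 3177 after IFNg, and 967, 1009 and 749 in untreated cells. Every interferon array was above every untreated array, with differences of log2 1.89 ± 0.15 after IFNa (3.70-fold, limma adjusted p = 6.30e-05) and 1.83 ± 0.17 after IFNg (3.56-fold, adjusted p = 6.12e-04). The IFNa level stood 0.06 ± 0.17 above the IFNg level (adjusted p = 0.904), whereas Cd69 stood 1.14 apart between them. The other 5 neighbours of Cd69, all lectin-like or NK receptor genes such as Clec12a and Clec2e, did not pass in any comparison (log2 -0.32 to 0.21).

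P2ry2 lies between P2ry6 and Fchsd2. Fchsd2, which encodes a protein of membrane trafficking, had 189, 214, 192 and 125 after IFNa, 951 and 782 after IFNg, and 152, 214 and 233 in untreated cells. It rose after IFNg (log2 2.13 ± 0.25, 4.39-fold, adjusted p = 0.00285) and was 4.89-fold lower after IFNa than after IFNg (log2 -2.29 ± 0.24, adjusted p = 0.00193). Without IFNg replicate 1 these calls were lost (adjusted p = 0.0613 and 0.0527). P2ry2 and Fchsd2, side by side, thus had opposite differences after IFNg.

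The pathways of the 6 genes were covered by 7 lists with 129 measured genes: ligand synthesis and other receptors for sphingosine-1-phosphate, oxysterols, prostanoids, nucleotides and serotonin, the G proteins with their regulators, and partners and neighbours of CD69. After IFNa 4 of the 129 rose and 3 fell (3.10% and 2.33%, against 1.79% and 0.856% of all genes), with a median of log2 -0.04 against -0.02 for all genes. After IFNg 1 rose and none fell by limma (all genes 1.24% and 0.111%), with a median of -0.08 against -0.06. At an unadjusted p under 0.05, 8 stood higher and 17 lower after IFNa, and 8 higher and 11 lower after IFNg. The share of all genes at that threshold is not given, so nothing is read from these or later unadjusted counts. Without both arrays of narrow range, 4 were called higher and 12 lower after IFNa, and 2 higher and 6 lower after IFNg. The count of falls thus depended on those arrays. In that fit the shares over all genes were 2.37% higher with 3.23% lower after IFNa, and 1.81% higher with 0.734% lower after IFNg.

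The S1P list covers the enzymes that make and break down the lipid, its other receptors and regulators of S1pr1. None of the 17 passed after IFNa or IFNg by limma (medians -0.07 and -0.16, and 2 lower at an unadjusted p under 0.05 in each), among them the receptor genes S1pr2 (0.04 ± 0.14 after IFNa) and S1pr4 (-0.07 ± 0.15), the kinase gene Sphk1 (0.37 ± 0.24), and Klf2 (0.06 ± 0.18), whose product activates S1pr1 transcription in lymphocytes. Klf2 had 1703, 2161, 2350.1 and 3084 after IFNa, 2332 and 2551 after IFNg, and 2369.8, 2069 and 2120.0 in untreated cells, so its groups overlapped. The lowest values were those of the receptor gene S1pr5 (-0.44 after IFNa and -0.80 after IFNg) and the kinase gene Sphk2 (-0.52, adjusted p = 0.0648, and -0.61, adjusted p = 0.107), named after their values were seen. Whether these genes differed in response from S1pr1 was not tested. Without the 2 narrow arrays Foxo1, Plpp2 and Sphk2, named after their values were seen, were called lower after IFNa, and Sphk2 after IFNg.

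The oxysterol list, which makes or clears the ligand of GPR183, had no called gene of 6 by limma, and 1 at an unadjusted p under 0.05 after IFNa. Ch25h, the enzyme that begins synthesis of the main ligand, differed by 0.24 ± 0.12 after IFNa and 0.24 ± 0.15 after IFNg, at intensities of 50.6 to 74.2 on all 9 arrays. Cyp7b1, the next enzyme, differed by -0.19 ± 0.19 and -0.37 ± 0.23.

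In the prostanoid list none of 19 genes passed by limma, and at an unadjusted p under 0.05 1 was higher and 3 lower after IFNa, and 4 were higher and 2 lower after IFNg. Without the 2 narrow arrays Ptgir, the prostacyclin receptor gene, was called lower after both interferons. Ptger2, the other prostaglandin E2 receptor that raises cyclic AMP, differed by -0.39 ± 0.12 after IFNa (adjusted p = 0.173) and -0.11 ± 0.15 after IFNg, against -1.37 and -0.72 for Ptger4. Ptgs2 (cyclooxygenase-2) differed by -0.13 ± 0.14 and 0.35 ± 0.17, and the prostaglandin E synthase gene Ptges by -0.13 ± 0.13 and -0.17 ± 0.16. The serotonin list, with 21 genes, had none that passed by limma, and at an unadjusted p under 0.05 it had 2 lower after IFNg. Htr2b and Htr7 lay at 50.7 to 92.9 on all arrays and differed by 0.13 ± 0.14 and 0.04 ± 0.15 after IFNa.

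The nucleotide list held 4 of the 7 pathway genes called after IFNa, and they moved both ways. P2ry13, a receptor for ADP, had 639, 622, 671 and 671 after IFNa, 253 and 284 after IFNg, and 217, 299 and 256 in untreated cells. It rose 2.55-fold after IFNa (log2 1.35 ± 0.13, adjusted p = 2.56e-04) and was 2.43-fold higher after IFNa than after IFNg (log2 1.28 ± 0.15, adjusted p = 0.00301, and 0.0826 without IFNg replicate 1). The IFNg arrays lay within the untreated range. P2ry14, a receptor for UDP-sugars, rose 2.38-fold after IFNa (log2 1.25 ± 0.18, adjusted p = 0.00355), with 896 to 928 on the IFNa arrays against 287 to 503 on the untreated ones. Its IFNg arrays had 505 and 409, and the direct difference of 1.01 ± 0.20 did not pass (adjusted p = 0.0544).

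P2ry6, a receptor for UDP and the neighbour of P2ry2, had 162.4, 239, 221 and 189 after IFNa, 177 and 239 after IFNg, and 326, 364 and 320.0 in untreated cells. It fell by 0.74 ± 0.16 on the log2 scale after IFNa (adjusted p = 0.0447), but leaving out any single array other than IFNa replicate 2 ended the call (adjusted p = 0.0595 to 0.225), as did leaving out both narrow arrays. The IFNg difference was similar in size and did not pass (-0.71 ± 0.19, adjusted p = 0.189). P2rx1, an ATP-gated channel gene, fell by 0.89 ± 0.19 after IFNa (adjusted p = 0.0412), and this call was lost without IFNa replicate 1, 2 or 3 or untreated replicate 2 or 3 (adjusted p = 0.0971 to 0.194). The channel gene P2rx7 (-0.35 ± 0.17) and Entpd1 (0.02 ± 0.11), which encodes the ectoenzyme CD39 that degrades ATP, did not pass.

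**Figure D3:**
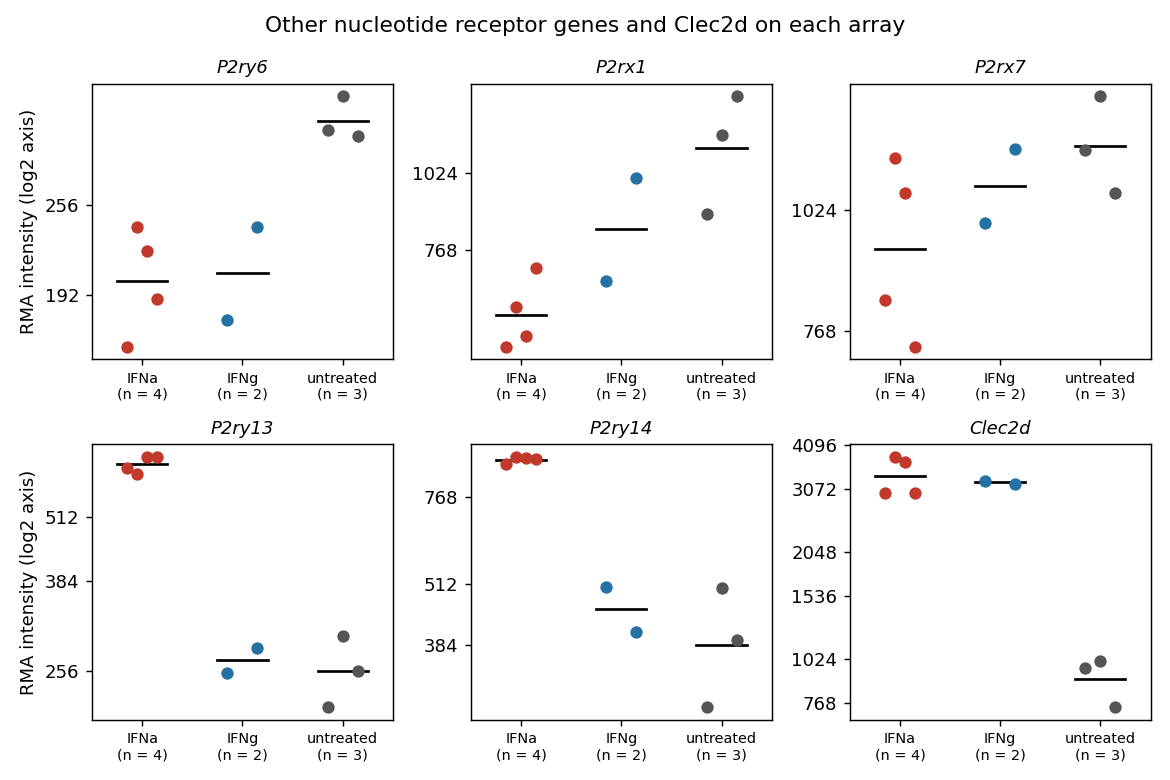
RMA intensity (log2 axis, a separate scale in each panel) of the nucleotide receptor genes P2ry6, P2rx1, P2rx7, P2ry13 and P2ry14 and of Clec2d on each array of the IFNa, IFNg and untreated groups. Points are arrays and black lines are means of the log2 values. P2ry13 and P2ry14 stand highest in the IFNa arrays, P2ry6 is lower in all interferon arrays, and Clec2d is higher in all of them.

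Among 28 genes of G proteins, RGS proteins, receptor kinases and arrestins, Gnb4, a G protein beta subunit gene, rose after IFNa (log2 0.97 ± 0.14, adjusted p = 0.00406) and Rgs3, whose product shortens G protein signalling, fell by 0.65 ± 0.14 (adjusted p = 0.0407). The call of Rgs3 was lost without any single array other than untreated replicate 1 (adjusted p = 0.0516 to 0.219). Arrb2, an arrestin that stops receptor signalling and aids internalization, stood at -0.69 ± 0.16 after IFNa and -0.57 ± 0.19 after IFNg, with every interferon array (2075 to 3286) below every untreated array (4229.5 to 4764), and did not pass (adjusted p = 0.0619 and 0.384). Rgs1 varied widely in untreated cells (120.2, 422 and 286) and stood at -1.24 ± 0.42 and -1.81 ± 0.50. Gnai2 (-0.08 ± 0.12 after IFNa), the main inhibitory alpha subunit of leukocytes, and Lgals1 (0.20 ± 0.18), a CD69 ligand in the partner list, did not pass. Without the 2 narrow arrays 6 genes of the G protein list were called lower after IFNa and 4 after IFNg (3.23% and 0.734% of all genes in that fit), with Arrb2, Rgs1, Rgs2 and Rgs3 among both.

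**Figure D4:**
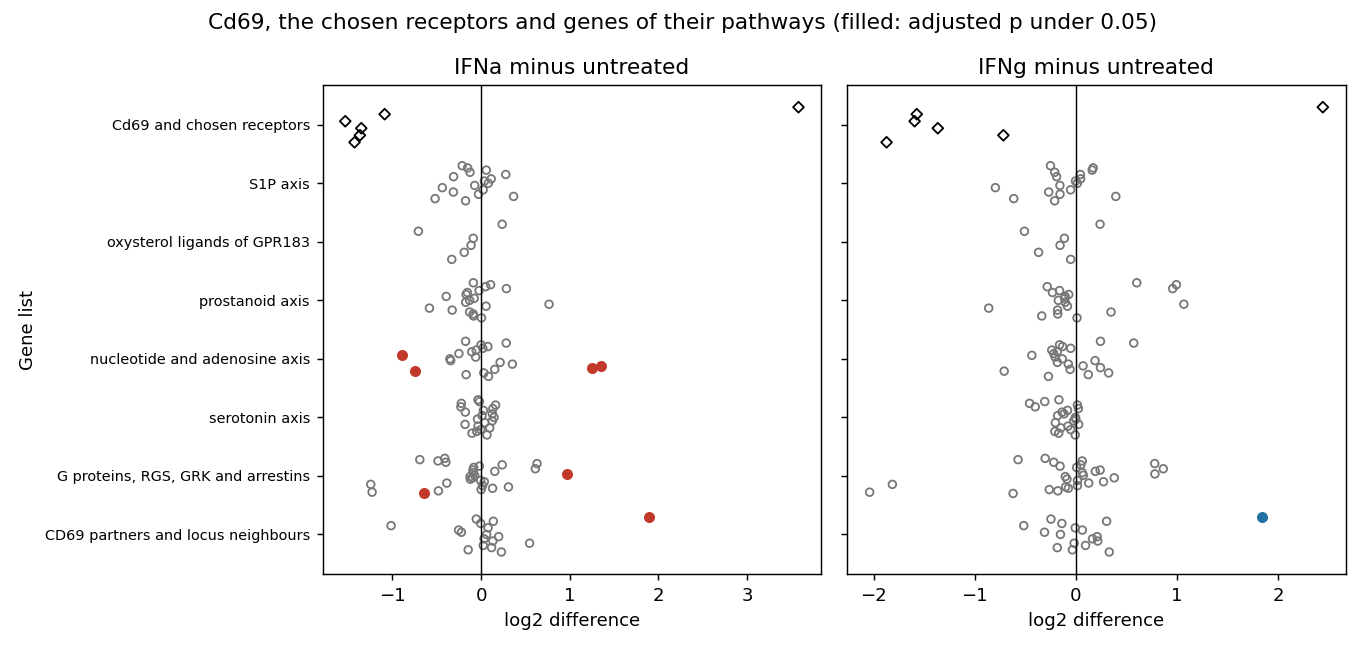
Log2 difference from untreated after IFNa (left) and IFNg (right) for Cd69 and the chosen receptor genes (diamonds, untested) and for each measured gene of 7 pathway lists (circles). Filled circles have an adjusted p under 0.05. The S1P, oxysterol, prostanoid and serotonin lists have no filled circle, and the nucleotide list has 4 after IFNa.

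The other receptor genes of the G-protein-coupled family with a probe set numbered 317, of which 234 lay at or below the median level of all genes. Of the 317, 1 fell after IFNa, P2ry6 (0.315%, against 0.856% of all genes), and 3 rose (0.946%, against 1.79%), P2ry13, P2ry14 and the adhesion receptor gene Adgrg7 (log2 1.20 ± 0.14, adjusted p = 0.0013). At an unadjusted p under 0.05, 13 stood lower and 9 higher after IFNa. Of the 83 above the median level 1 fell and 2 rose after IFNa (1.20% and 2.41%), and 5 rose after IFNg (6.02%). The share among all genes above the median level is not given, so nothing is read from these percentages. Of the 317 after IFNg none fell by limma (all genes 0.111%) and 5 rose (1.58%, against 1.24%). At an unadjusted p under 0.05, 9 stood lower and 9 higher after IFNg. The median difference of the 317 genes was 0.01 after IFNa and -0.12 after IFNg, against -0.02 and -0.06 for all genes. The 5 chosen genes had the 5 most negative differences of all 322 receptor genes after IFNa, and 4 of them the 4 most negative after IFNg with Ptger4 8th, which follows from how they were chosen. The next receptor genes were P2ry6 at -0.74 after IFNa and Calcrl at -1.01 after IFNg. Without the 2 narrow arrays 3 other receptor genes were called lower after IFNa and 2 after IFNg, where 3.23% and 0.734% of all genes were.

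The receptor genes that rose after IFNg were Hcar2, which encodes the receptor of niacin and beta-hydroxybutyrate, the adhesion receptor gene Adgrf5, Opn3, Gpr146 and the histamine receptor gene Hrh2. Hcar2 had 572, 314, 508 and 522 after IFNa, 2011 and 2499 after IFNg, and 206, 248 and 456 in untreated cells. It rose by log2 2.97 ± 0.34 after IFNg (7.84-fold, adjusted p = 0.00233) and the IFNa minus IFNg difference was -2.26 ± 0.33 (adjusted p = 0.0103, and 0.102 or more without either IFNg array). Adgrf5 rose by 2.04 ± 0.24 after IFNg (adjusted p = 0.00232), with 801 and 485 after IFNg against 121 to 177.7 in untreated cells. It had 110.1 to 139.9 after IFNa, and its direct difference was -2.28 ± 0.22 (adjusted p = 0.00113). Opn3 (1.15 ± 0.18, adjusted p = 0.0147), Gpr146 (1.496 ± 0.26, adjusted p = 0.0233) and Hrh2 (0.79 ± 0.14, adjusted p = 0.0229) rose by less. Their calls were lost without untreated replicate 2 or IFNg replicate 2, those of Gpr146 and Hrh2 also without IFNg replicate 1 or IFNa replicate 1, and that of Hrh2 without IFNa replicate 2 or untreated replicate 1 (adjusted p up to 0.386).

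In the direct comparison 1 other receptor gene was higher after IFNa (P2ry13) and 5 were lower, Adgrf5, Hcar2, Opn3, Gpr146 and Gpr155, of 317 (0.315% and 1.58%, against 0.44% and 0.537% of all genes). Opn3 stood at -1.12 ± 0.18 (adjusted p = 0.0163), Gpr146 at -1.32 ± 0.25 (adjusted p = 0.0438) and Gpr155 at -1.07 ± 0.21 (adjusted p = 0.0473). The calls of Opn3, Gpr146 and Gpr155 were lost without IFNa replicate 1 or 2 or either IFNg array, and those of Gpr146 and Gpr155 also without IFNa replicate 3 or untreated replicate 2 or 3 (adjusted p up to 0.667). Without the 2 narrow arrays 8 other receptor genes were higher and 5 lower, and 1.27% and 1.48% of all genes were.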

How the data were processed

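Messenger RNA was measured on 9 single-colour Affymetrix whole-transcript arrays. TriZol was used for total RNA and the Affymetrix terminal labelling kit for the targets, per the labels. The deposited values are intensity on a linear scale, made with Affymetrix Power Tools and RMA (background correction, normalization and probe set summary) per the submitters' processing notes, which give no version and do not say which arrays were normalized together. RMA compresses differences of dim probe sets, and precision is limited by the number of arrays.

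Intensities were put on the log2 scale. Where several probe sets named a single gene the brightest on average was kept, and probe sets with several symbols were left out, which gave 19752 genes from 24922 probe sets, and each of the 6 genes had 1 such probe set. Symbols were updated through the RefSeq table, where 19677 genes matched. limma 3.58.1 (R 4.3.3) fitted the means of the 3 groups together, with 6 residual and 3.62 prior degrees of freedom, which takes the spread of the 2 IFNg arrays to be that of the rest. P-values were two-sided, adjusted by Benjamini-Hochberg over all genes of a comparison and called under 0.05. The model was tested on simulated data. Named genes were the 6 themselves, called pathway genes, 20 pathway genes fixed by role (Grk2 had no probe set of its own), other receptor genes with the smallest p and genes of most like pattern. Other receptors were taken by symbol. Neighbours and the GC box were added after values were seen. The 6 genes, all lists and the 2 arrays left out together were chosen with earlier results of these data known. Replicate numbers differed between titles and descriptions, and the reported fit used no pairing. Deviations of same-numbered arrays correlated between -0.211 and 0.604 by title and between -0.442 and 0.106 by description. The deviations of the 2 IFNg arrays mirror each other, so these values can neither show nor exclude a pairing with them. Alternatives were other scalings, a filter on dim genes, an intensity trend, fits of only the groups compared, replicate blocks and arrays left out. Figures used Python 3.11.15 with matplotlib 3.10.9.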

Additional observations from a re-analysis of the deposited data

Results flagged for a closer look

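Of 41 sets of 4 IFNa values examined, 5 had 1 array far from the other 3. Chance gives about 1 in 20 for independent sets. These sets share the same 4 arrays, so nothing is read from the count. In each of the 5 the array apart was IFNa replicate 4, an array of narrow intensity range. It also had the highest mast cell marker sum (3108, most of it from Hdc, other arrays 1185 to 1593). Across genes it correlated with the rest at a mean r of 0.956, against 0.978 to 0.982 for the other IFNa arrays (gap over range 0.86). Sphk1, the sphingosine kinase gene, had 363 there against 190 to 207 (189.6 to 207.2) on the other IFNa arrays (0.864). The dim receptor genes Htr2b and Htr7 had 78.7 and 92.9 there, against at most 58.3 and 68.7 (0.905 and 0.846). Ch25h had 74.2 there, against 69.5 on each of the other 3 (1.0), a tie in the deposited values.

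The responses to the 2 interferons differed by the direct test for 7 of the named genes. Lower after IFNa than after IFNg were Fchsd2 (log2 -2.29), Adgrf5 (-2.28), Hcar2 (-2.26), Gpr146 (-1.32), Opn3 (-1.12) and Gpr155 (-1.07). Higher after IFNa was P2ry13 (1.28). Each was named because it had been called, so nothing is read from the count (0.977% of all genes passed). As given above, the calls of Fchsd2, Hcar2, Gpr146, Opn3, Gpr155 and P2ry13 did not hold for every array left out.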

How the results depend on the processing

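The 6 genes kept their direction from untreated under every alternative run. They were chosen by these values, and their interferon and untreated arrays did not overlap. Leaving out arrays therefore could not reverse a direction, and nothing is read from it. Leaving out an array of a group outside a comparison cannot change its difference, and such values are counted among 252 differences. Of these 252 differences 249 moved by less than 1 residual SD. The exceptions were IFNa minus IFNg differences with a replicate block by description number, 0.83 for Gpr183 (0.48 without), 0.35 for P2ry2 (0.01) and -0.26 for Ptger4 (-0.65). Keeping every probe set gave no other value, since each gene had 1. Counts below are those that moved by over 1.5 times, and the cause was not tested.

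Quantile normalization called 421 of all genes lower after IFNa, 80 lower after IFNg and 160 higher in IFNa minus IFNg (169, 22 and 87 in the reported fit). In the pathway lists it gave 9 lower after IFNa, 4 lower after IFNg and 2 higher in IFNa minus IFNg (3, 0 and 1). Among other receptor genes it gave 3 lower after IFNa, 3 higher after IFNg and 5 higher in IFNa minus IFNg (1, 5 and 1). Median centring called 105 of all genes, 0 pathway genes and 0 other receptor genes lower after IFNa, and an intensity trend called 100 of all genes and 0 pathway genes lower after IFNa. Each gave 3 other receptor genes lower in IFNa minus IFNg (5). Leaving out the dimmest 30% of genes gave 2 pathway genes and 2 other receptor genes higher in IFNa minus IFNg.

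Fitting only the groups compared called 74 of all genes lower after IFNa, and 112 higher (245) and 7 lower after IFNg. It gave 1 pathway gene and 0 other receptor genes lower after IFNa, 2 other receptor genes higher after IFNg, 2 pathway genes higher in IFNa minus IFNg, and 3 other receptor genes higher and 3 lower there. Without the 2 arrays of narrow range, 638 of all genes were lower after IFNa, 145 lower after IFNg, and 250 higher and 292 lower in IFNa minus IFNg (106 lower). Pathway genes were then 12 lower after IFNa, 2 higher and 6 lower after IFNg, and 3 higher and 1 lower in IFNa minus IFNg. Other receptor genes were 6 higher and 3 lower after IFNa, 2 lower after IFNg and 8 higher in IFNa minus IFNg.

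The replicate block did not rest on a pairing in the design. By title number it called 587 of all genes higher after IFNa (354), and 589 higher and 110 lower after IFNg. It gave 6 pathway genes lower after IFNa, 4 higher and 4 lower after IFNg and 2 higher in IFNa minus IFNg, and 2 other receptor genes lower after IFNa and 3 lower after IFNg. The replicate block by description number called 726 of all genes higher after IFNa and 56 lower in IFNa minus IFNg. It gave 7 pathway genes higher after IFNa and 2 lower after IFNg, 5 other receptor genes higher and 0 lower after IFNa, and 2 higher and 1 lower in IFNa minus IFNg.

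Leaving out each array in turn, 27 to 255 of all genes were lower after IFNa, 79 to 363 higher and 1 to 44 lower after IFNg, and 21 to 130 higher and 21 to 146 lower in IFNa minus IFNg. Pathway genes were 0 to 4 lower after IFNa, 1 to 3 higher and 0 to 2 lower after IFNg, and 0 to 2 higher and 0 to 1 lower in IFNa minus IFNg. Other receptor genes were 0 to 1 lower after IFNa, 2 to 5 higher after IFNg, and 0 to 3 higher and 1 to 5 lower in IFNa minus IFNg.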
